A study of Mus musculus with 16 samples.

Results

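Transcript levels of 10 mouse genes that break down heme and handle iron were followed in the RPE (retinal pigment epithelium), the sheet of pigmented cells that nourishes the photoreceptors. The genes were named by function: the heme oxygenases Hmox1 and Hmox2, the biliverdin reductases Blvra and Blvrb, the ferritin chains Fth1 and Ftl1, the transferrin receptor Tfrc, the iron exporter Slc40a1, and the ferroxidases Cp and Heph. All 10 were found among the 51912 genes of the count table, and all 10 were among the 15380 genes that averaged at least 1 CPM (counts scaled to a library of 1000000) and were tested. The 16 libraries came from 40-week-old male C57BL/6 mice in 4 groups of 4 libraries. The groups were wild-type (WT) untreated, WT with hydroquinone (a quinol used to cause oxidative stress), SUCNR1 KO untreated and SUCNR1 KO with hydroquinone. SUCNR1 is the cell-surface receptor for succinate, encoded by Sucnr1. The labels give neither the construction of the knockout allele nor the dose, route or length of the hydroquinone exposure. Each library was 1 eye, and by the titles the groups held 2, 4, 3 and 4 mice, although the protocol text gives 4 animals in every group. Nothing says that libraries of 1 mouse were independent, so p-values measure the spread between libraries and not between mice. They can be too small where both eyes of a mouse were counted, and the spread may in part be technical.

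Heme oxygenase opens the heme ring and releases iron, carbon monoxide and biliverdin, and biliverdin reductase turns biliverdin into bilirubin. The freed iron is stored in ferritin shells built of heavy and light chains, or leaves the cell through ferroportin (Slc40a1). Ceruloplasmin (Cp) or hephaestin (Heph) oxidises the exported iron. The RPE digests shed photoreceptor tips and passes iron between the choroidal blood and the retina, and mice that lack both Cp and Heph are known to accumulate iron in this layer. Hmox1 is a classical target of the oxidant-sensing factor NRF2 and of the heme-sensing repressor BACH1, whereas Hmox2 is mostly constitutive.

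Several of these genes are also controlled after transcription. Iron regulatory proteins bind a hairpin, the iron-responsive element. In a 5′ UTR the bound hairpin blocks translation, and in the 3′ UTR of Tfrc it protects the transcript from decay. The hairpins below are shown because read counts measure only the transcript, so the 5′ form would not appear in them directly. They were found in the GENCODE M21 transcripts on GRCm38 by the loop pattern CNNNNNCAGTGN on the transcript strand with the 5 bases on each side of the loop able to pair, and the capitals mark the 6-base loop. Of 20580 genes with an annotated 5′ UTR long enough to hold the pattern and its paired bases, 0.151% held such a hairpin there. Of 20962 genes with such a 3′ UTR, 0.615% held 1 there. A match is a description of the letters, and no match was found in the UTRs of the other 6 genes.
Fth1 5′ UTR, chr19:9982732-9982761, plus strand: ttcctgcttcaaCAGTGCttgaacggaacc
Ftl1 5′ UTR, chr7:45459778-45459807, minus strand: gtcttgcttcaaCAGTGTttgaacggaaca
Slc40a1 5′ UTR, chr1:45925464-45925493, minus strand: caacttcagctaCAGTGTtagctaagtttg
Tfrc 3′ UTR, chr16:32631219-32631248, plus strand: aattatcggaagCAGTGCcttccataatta
Tfrc 3′ UTR, chr16:32631598-32631627, plus strand: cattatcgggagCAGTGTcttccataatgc
Tfrc 3′ UTR, chr16:32631663-32631692, plus strand: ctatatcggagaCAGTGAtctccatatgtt
Tfrc 3′ UTR, chr16:32631710-32631739, plus strand: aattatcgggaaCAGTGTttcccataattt

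Library totals ranged from 21113549 to 35332444 counts. All 10 RPE markers were detected in every library, with a summed level of 23087 to 37359 CPM. Markers of other cells varied more: 10 rod markers summed to 247 to 22215 CPM, 6 oligodendrocyte markers to 121 to 9876 CPM, 6 corneal epithelium markers to 2154 to 24454 CPM and 8 macrophage markers to 1043 to 3531 CPM. Hemoglobin and other erythroid markers (7 genes) summed to 135 to 923 CPM. Sucnr1 itself was close to undetected, with 29 counts in 4 of 8 WT libraries and 4 counts in 2 of 8 KO libraries, so it checks the genotype labels only weakly. Library identifiers came with or without a letter, 2 of each in 3 groups and 3 without in WT with hydroquinone. What the letter stands for is not given, and values within each form are printed below where they differ. With a letter, WT with hydroquinone was 1 library, replicate 4, so those values rest in part on it.

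Per kilobase of exon, the ferritin chains stood far above the other 8 genes. Fth1 averaged 737 ± 188 and Ftl1 590 ± 132 CPM per kb (SD over 16 libraries). Hmox2 followed at 25.4 ± 1.86, Cp at 17.1 ± 4.73, Hmox1 at 14.6 ± 4.25, Tfrc at 12.8 ± 3.23 and Heph at 10.1 ± 2.78 CPM per kb. Blvrb averaged 7.27 ± 1.88, Blvra 5.69 ± 0.907 and Slc40a1, the lowest, 1.64 ± 0.555 CPM per kb. Ftl1 was above Hmox2, and Blvra above Slc40a1, in 16 of 16 libraries. The order within the middle of the list was looser: Cp exceeded Hmox1 in 10 libraries, Hmox1 exceeded Tfrc in 11, and Tfrc exceeded Heph in 12. Fth1 exceeded Ftl1 in 12 of 16 by this measure. Exon length counted all annotated exons of a gene, so these levels depend on the isoforms annotated.

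**Figure D1:**
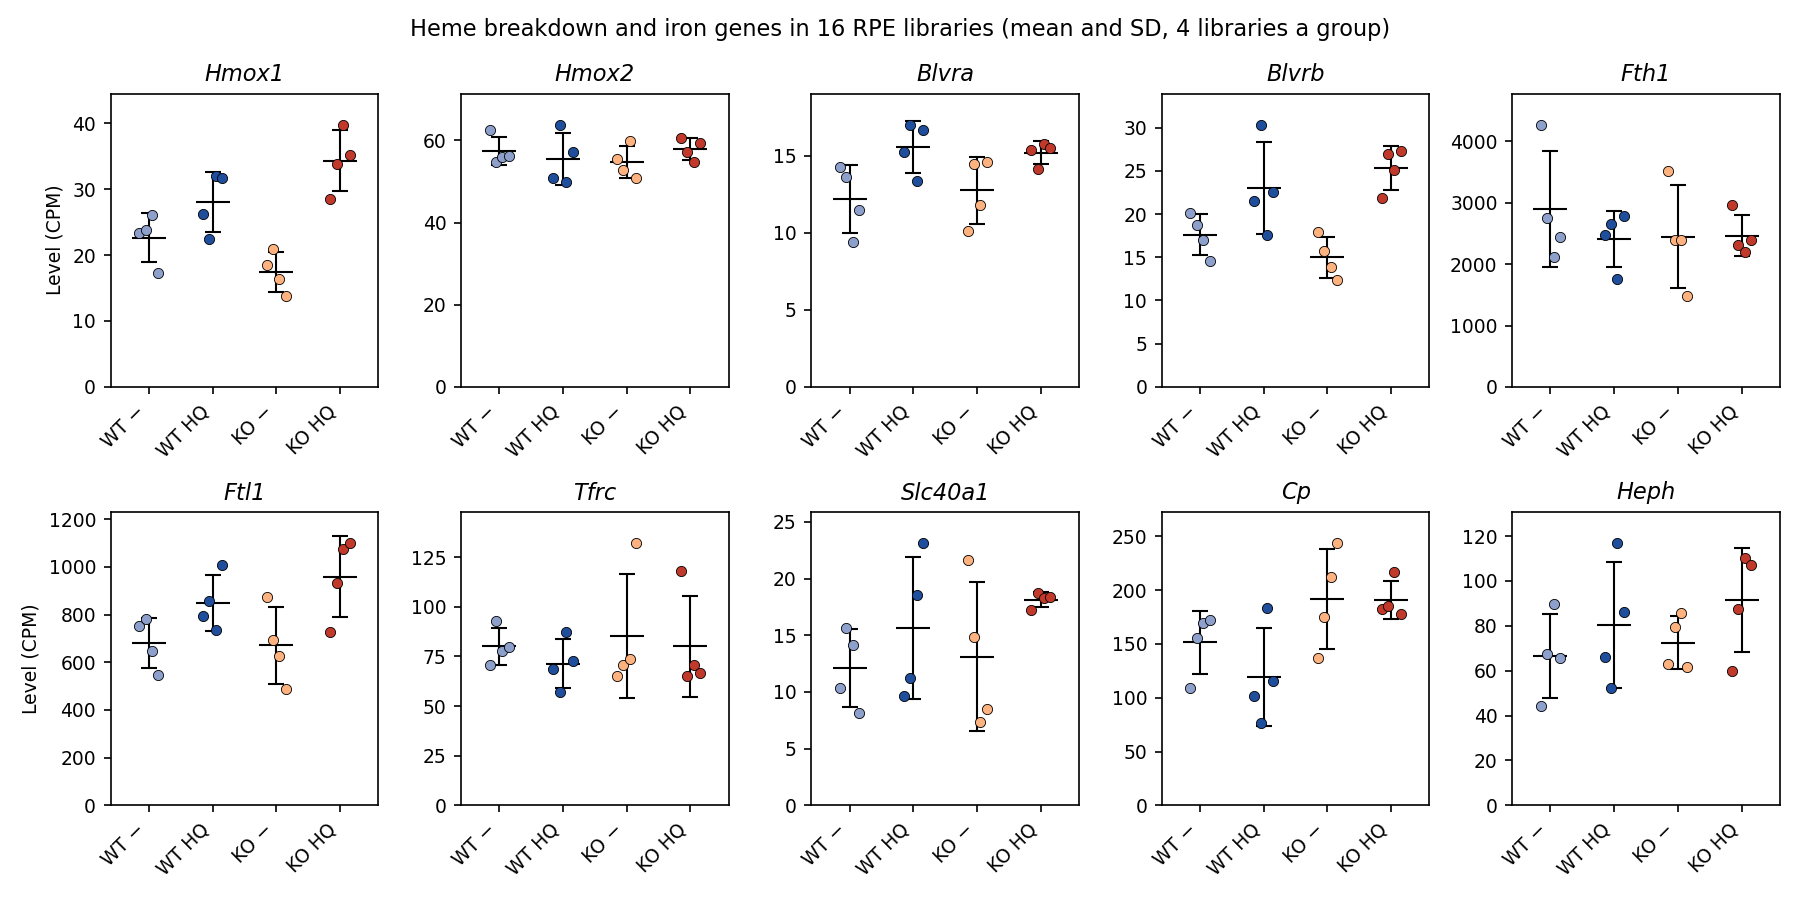
Level of each of the 10 genes (CPM, linear axes from 0) in WT and KO libraries without (−) and with hydroquinone (HQ). Points are libraries, and bars are the mean and SD of 4 libraries. For Hmox1 and Blvrb every KO library with hydroquinone lies above every untreated KO library. Tfrc has 1 high library in each KO group (132 and 118 CPM).

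Hmox1 (ENSMUSG00000005413, chr8:75093621-75100589, plus strand) is the inducible heme oxygenase. In the 4 untreated WT libraries it stood at 23.4, 23.9, 26.0 and 17.3 CPM, and in WT with hydroquinone at 26.3, 22.5, 32.0 and 31.6 CPM. The untreated KO libraries stood at 18.6, 20.9, 16.4 and 13.8 CPM, and KO libraries with hydroquinone at 28.5, 33.8, 39.7 and 35.2 CPM. The KO groups did not overlap, while the WT groups did, and 7 of the 8 hydroquinone libraries were above all 8 untreated ones. Averaged over genotype the log2 fold change was 0.65 (SE 0.12), a 1.56-fold higher level with hydroquinone, with an adjusted p of 0.0657 by edgeR's quasi-likelihood test. In KO it was 0.98 (SE 0.17), or 1.97-fold (adjusted p = 0.0625, edgeR), and in WT 0.31 (SE 0.17; adjusted p = 0.994, edgeR). All 3 values missed the threshold of 0.05.

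No member passed that threshold in any of the 7 comparisons. The background was low as well: edgeR called 0.0845% of the 15380 genes for hydroquinone averaged over genotype, 0.0455% in KO, 0.0065% in WT, and 0 genes in the 3 genotype comparisons and the interaction. At an unadjusted p below 0.05, 4 of 10 members were past it for hydroquinone averaged over genotype (Hmox1, Blvrb, Ftl1 and Blvra, all higher) against 5.72% of all genes tested, or 2.75% for higher genes alone. In KO 3 of 10 were past it against 2.96%, and in WT 2 of 10 against 4.28%. In the genotype comparisons 1 of 10 was past it untreated (Hmox1, against 1.32% of all genes), 1 under hydroquinone (Cp, against 4.18%) and 1 averaged over treatment (Cp, against 2.96%). The median log2 fold change of the 10 members was 0.30 averaged over genotype, beside 0.01 for all genes tested. The members were not chosen independently of results on these libraries, so these counts are a description. Hmox1 and Blvrb were the only members whose groups did not overlap, both in KO and both higher with hydroquinone, where 1.91% of all genes had groups without overlap and 1.18% were higher. For hydroquinone in WT, for genotype untreated and for genotype under hydroquinone, 0 of 10 members had groups without overlap, against 2.91%, 1.05% and 2.33% of all genes. By DESeq2, which called 0.259% of 15077 genes averaged over genotype and 0.0911% of 15376 in KO, Hmox1 passed (adjusted p = 0.000341 and 0.000122) and so did Blvrb (0.00543 and 0.0472). With the rod score as a term in the edgeR fit, Hmox1 passed in both (adjusted p = 0.0245 and 0.018). That fit called 0.0845% and 0.0585% of all genes. With the corneal epithelium score, which called 0.111% averaged over genotype, Hmox1 passed there (0.0351) but not in KO (0.063). It missed in both with the macrophage score (adjusted p = 0.0917 and 0.104, edgeR). The same held for the oligodendrocyte score (adjusted p = 0.552 and 0.171, edgeR).

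The log2 fold change of Hmox1 with hydroquinone was 0.67 larger in KO than in WT (SE 0.23), a difference with an unadjusted edgeR p of 0.0122 and an adjusted p of 1.00. Hmox1 was the only member with an unadjusted p below 0.05 there, beside 1.92% of all genes. Both ends entered this difference: untreated KO stood 0.38 log2 units below untreated WT (SE 0.17) and KO with hydroquinone 0.29 above WT with hydroquinone (SE 0.17). Neither difference passed (adjusted p = 1.00 for both, edgeR), and both pairs of groups overlapped. The value for Hmox1 averaged over genotype was 0.36 among libraries without a letter in the identifier and 0.97 among those with a letter, so its size differed by form while its direction did not; the difference between forms was not tested. With the eyes of a mouse summed into 1 sample it was 0.66 (adjusted p = 0.391, edgeR).

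Hmox2 (ENSMUSG00000004070, chr16:4726361-4766742, plus strand), the constitutive heme oxygenase, had the flattest profile of the 10. It averaged 57.4 ± 3.52 CPM in untreated WT, 55.5 ± 6.39 in WT with hydroquinone, 54.7 ± 3.93 in untreated KO and 58.0 ± 2.63 in KO with hydroquinone (SD, n = 4 libraries each). Its log2 fold change averaged over genotype was 0.02 (SE 0.07). The ratio of Hmox1 to Hmox2 within a library, both per kilobase, was 0.390 to 0.588 in untreated WT and 0.447 to 0.810 in WT with hydroquinone. It was 0.343 to 0.502 in untreated KO and 0.595 to 0.920 in KO with hydroquinone, without overlap in KO. Hmox2 was therefore the more abundant heme oxygenase transcript in all 16 libraries. Because Hmox2 was so flat, the ratio largely repeated the Hmox1 values and is not a separate observation.

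**Figure D2:**
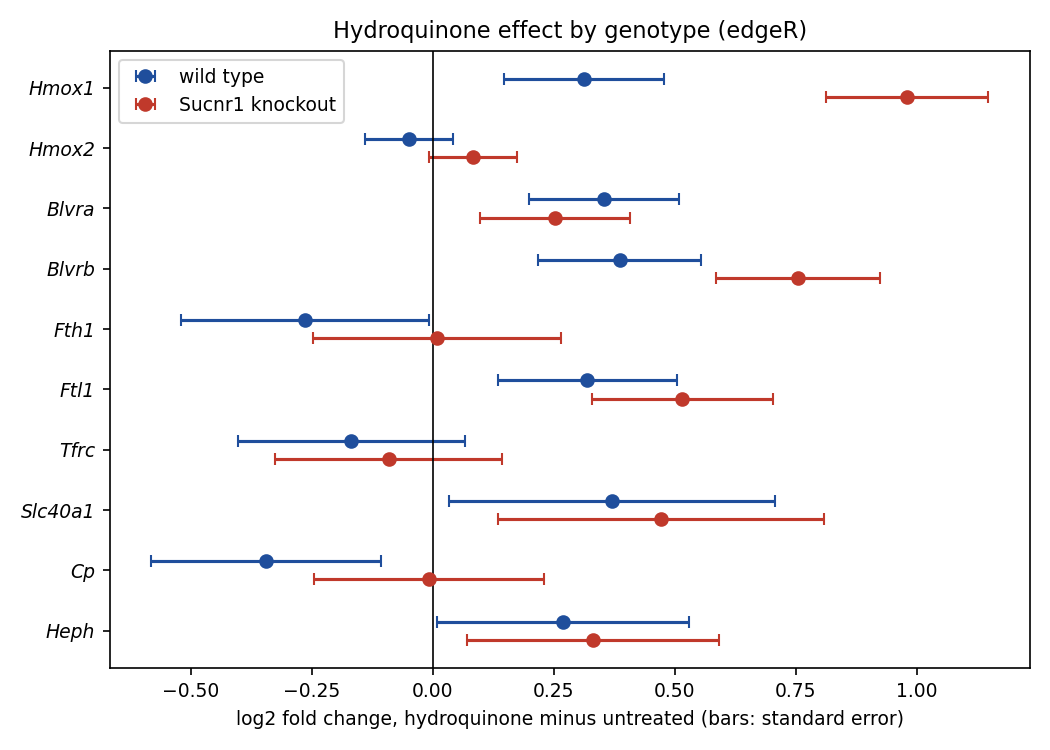
Log2 fold change of each gene, hydroquinone minus untreated, in WT and in Sucnr1 knockout (edgeR; bars are standard errors). Hmox1 (0.98) and Blvrb (0.76) have the largest values in KO. In WT the values of Hmox1, Blvrb, Blvra, Ftl1 and Slc40a1 lie between 0.31 and 0.39, and none of the values shown passed an adjusted p of 0.05.

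Blvrb (ENSMUSG00000040466, chr7:27447978-27466144, plus strand) encodes the biliverdin reductase of the beta type, which also reduces flavins. It stood at 20.1, 18.8, 17.01 and 14.5 CPM in untreated WT and at 21.6, 30.3, 17.5 and 22.5 CPM in WT with hydroquinone. In untreated KO it stood at 17.9, 15.8, 13.9 and 12.4 CPM, and in KO with hydroquinone at 21.8, 27.0, 25.1 and 27.3 CPM. As for Hmox1, 7 of the 8 hydroquinone libraries were above every untreated library, the exception being WT replicate 3. The log2 fold change was 0.57 averaged over genotype (SE 0.12; adjusted p = 0.208, edgeR), 0.76 in KO (SE 0.17; adjusted p = 0.537, edgeR) and 0.39 in WT (SE 0.17; adjusted p = 0.994, edgeR). The averaged value was 0.40 without and 0.715 with a letter in the identifier.

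Blvra (ENSMUSG00000001999, chr2:127070665-127097084, plus strand) encodes the alpha type, the main bilirubin-forming reductase of adult tissue. It stood at 14.3, 13.6, 9.37 and 11.5 CPM in untreated WT and at 15.2, 16.99, 13.3 and 16.7 CPM in WT with hydroquinone. Untreated KO libraries stood at 10.1, 14.5, 11.8 and 14.6 CPM, and KO libraries with hydroquinone spanned only 14.1 to 15.8 CPM. Each pair of groups overlapped by 1 or more libraries. The log2 fold change was 0.30 averaged over genotype (SE 0.11; adjusted p = 0.823, edgeR), 0.35 in WT and 0.25 in KO, and it was 0.28 and 0.33 in the forms of the identifier. Blvra differed from Hmox1 and Blvrb in that its value was no larger in KO than in WT, but none of these interactions passed the test.

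Promoters of the members were searched for the core of the antioxidant response element, the motif that NRF2 binds, written TGACNNNGC and read on both strands. RefSeq windows from 250 bases before to 50 after the start were at hand for 7 members (build GRCm38.p6), and 13.99% of all 27025 genes with such a window held the motif. Among the 7, Blvra alone held it, on the minus strand 49 bases before the start, and the stretch is printed in plus-strand letters with the motif in capitals. Blvrb had a window without a match, and Hmox1, Slc40a1 and Heph were not searched. The match says nothing of binding in these cells.
Blvra promoter, chr2:127070598-127070626, plus strand: cacgggaattGCTCGGTCAaggctccgcc

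The ferritin chains had different profiles over the groups. Ftl1 (ENSMUSG00000050708, chr7:45457944-45459884, minus strand), the light chain that helps the iron core form, stood at 750.4, 779.8, 647 and 548 CPM in untreated WT and at 795, 858, 737 and 1009 CPM in WT with hydroquinone. The untreated KO libraries stood at 875, 695, 626 and 486 CPM, and KO libraries with hydroquinone at 729, 933, 1074 and 1098 CPM. Both pairs overlapped, with the 3 highest libraries of KO with hydroquinone above all untreated libraries. Its log2 fold change was 0.42 averaged over genotype (SE 0.13; adjusted p = 0.761, edgeR), 0.52 in KO and 0.32 in WT. The averaged value was 0.11 in libraries without a letter and 0.785 in those with a letter.

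Fth1 (ENSMUSG00000024661, chr19:9980598-9985098, plus strand), the heavy chain that carries the ferroxidase centre, stood at 4270.0, 2748, 2121 and 2449.9 CPM in untreated WT and at 2469, 2653, 1753 and 2782 CPM in WT with hydroquinone. In untreated KO it stood at 3524, 2397, 2395 and 1487 CPM, and in KO with hydroquinone at 2959, 2309, 2200.3 and 2389 CPM. The untreated groups held both the highest and the lowest library, so the groups overlapped widely. The log2 fold change was -0.13 averaged over genotype (SE 0.18; adjusted p = 0.944, edgeR), -0.26 in WT and 0.01 in KO, and its sign was not stable: it was -0.35 without and 0.17 with a letter in the identifier. Without untreated WT replicate 1 the WT value was -0.01.

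The highest Fth1 libraries were also rich in markers of oligodendrocytes, cells of the optic nerve that are known for high ferritin. The 3 libraries with the most Fth1 (WT untreated replicate 1, KO untreated replicate 1 and KO with hydroquinone replicate 1) had oligodendrocyte sums of 9876, 5145 and 5763 CPM, the highest 3 of the 16. Below these the order was looser. WT untreated replicate 4 and KO untreated replicate 3 had sums of 5116 and 4380 CPM, with Fth1 at 2449.9 and 2395 CPM. WT with hydroquinone replicates 2 and 4 had sums of 178 CPM each, with Fth1 at 2653 and 2782 CPM. In each of the 3 mice with both eyes, the eye with more oligodendrocyte marker RNA had more Fth1 (4270.0 against 2748, 2449.9 against 2121, and 3524 against 2395 CPM). The eyes of these mice also differed in the form of the identifier, which cannot be told apart from the eye. With the oligodendrocyte score as a term in the fit, the averaged log2 fold change of Fth1 was 0.15 in place of -0.13. In bulk tissue a different number of cells of a type and a different amount of RNA per cell cannot be told apart.

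The ratio of Fth1 to Ftl1 per kilobase was 1.27 to 2.20 in untreated WT and 0.919 to 1.20 in WT with hydroquinone, with no overlap. It was 1.18 to 1.56 in untreated KO and 0.791 to 1.57 in KO with hydroquinone, where only replicate 1 was above 1; that library had the highest oligodendrocyte sum of its group (5763 CPM, against 121 to 985 CPM in the other 3). Per kilobase, the light chain transcript was thus above the heavy chain transcript in 4 of 8 hydroquinone libraries and in 0 of 8 untreated ones. In CPM Fth1 was above Ftl1 throughout, with a lowest Fth1 library of 1487 CPM and a highest Ftl1 library of 1098 CPM. Exon lengths of 3469 bases for Fth1 and 1340 for Ftl1 count all annotated exons, so where the ratio crosses 1 depends on annotation. In both genotypes the oligodendrocyte sum moved with this ratio. Untreated WT had sums of 9876, 2596, 139 and 5116 CPM, for ratios of 2.20, 1.36, 1.27 and 1.73. WT with hydroquinone had sums of 1854, 178, 128 and 178 CPM, and the WT medians were 3856 and 178 CPM. Untreated KO had sums of 5145, 1028, 4380 and 421 CPM, for ratios of 1.56, 1.33, 1.48 and 1.18. KO with hydroquinone had sums of 5763, 985, 121 and 347 CPM, for ratios of 1.57, 0.956, 0.791 and 0.840. The ratio was examined with the values known and was not tested, nor was the part of these cells in it. Copies of ferritin genes bear on Ftl1: 50.88% of its 50-base windows also occur in copies elsewhere in the genome (Ftl1-ps1, Gm15590, Ftl2-ps and Ftl1-ps2), against 1.59% for Fth1 and 0 for the other 8 members. Of 14 other rows whose symbol starts with Fth or Ftl, 8 had no count in any library, and Ftl1-ps1 alone averaged at least 1 CPM (3.57 CPM, 0.454% of the Ftl1 counts). How reads that fit several copies were treated is not given in the sources used here, and adding the Ftl1 copies to Ftl1 left the averaged log2 fold change at 0.42.

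**Figure D3:**
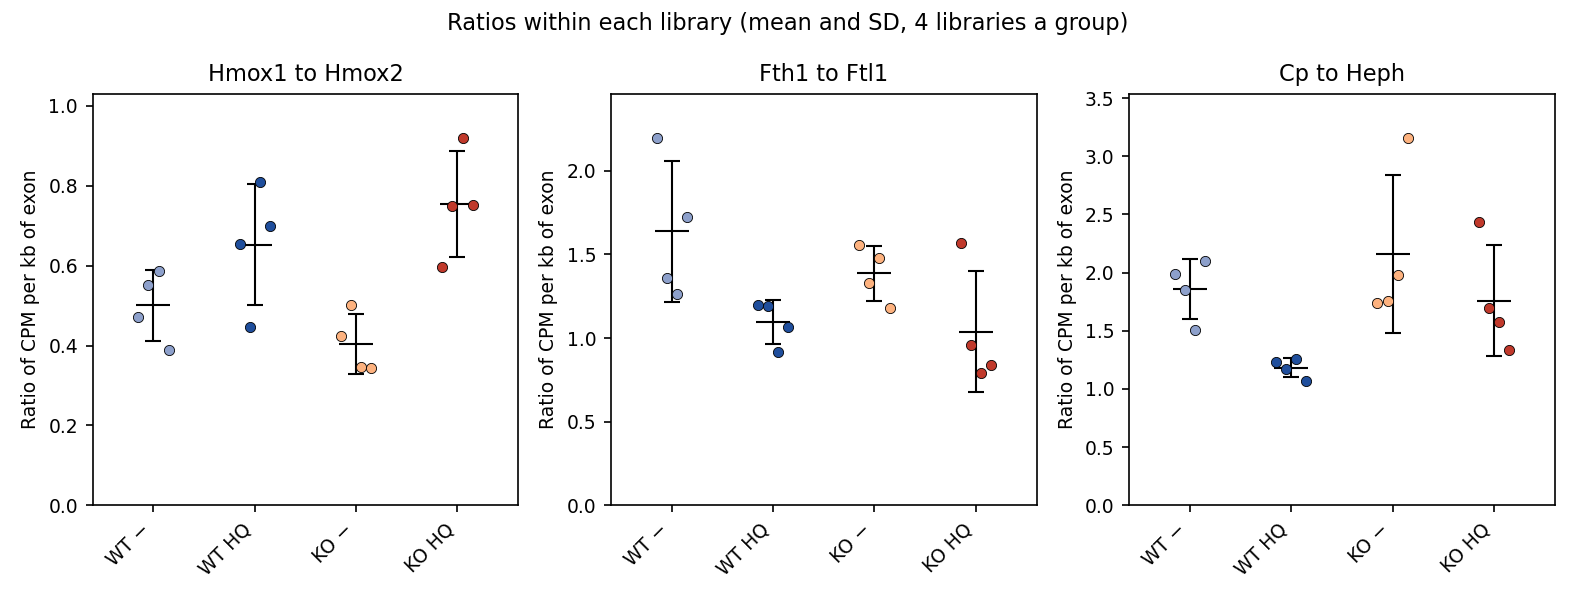
Ratios of levels per kilobase of exon within each library, in WT and KO without (−) and with hydroquinone (HQ). Points are libraries, and bars are the mean and SD of 4 libraries. Hmox1 to Hmox2 reaches 0.920 in KO with hydroquinone, Fth1 to Ftl1 lies at 1.20 or lower in all WT libraries with hydroquinone and at 1.27 or higher in untreated WT, and Cp to Heph is lowest in WT with hydroquinone (1.07 to 1.26).

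Tfrc (ENSMUSG00000022797, chr16:32608920-32632794, plus strand) encodes the receptor that takes up transferrin-bound iron. It stood at 70.5, 92.9, 77.7 and 79.6 CPM in untreated WT and at 68.7, 57.0, 87.2 and 72.5 CPM in WT with hydroquinone. Untreated KO libraries stood at 65.0, 70.7, 73.5 and 132 CPM, and KO libraries with hydroquinone at 118, 65.0, 70.7 and 66.7 CPM. A single library in each KO group was thus far above the other 3, and these were the 2 libraries with the most rod marker RNA of all 16, at 22215 and 20245 CPM. In each of the 3 mice with both eyes, the eye with more rod marker RNA had the higher Tfrc. The log2 fold change with hydroquinone was -0.13 averaged over genotype (SE 0.17; adjusted p = 0.940, edgeR), -0.17 in WT and -0.09 in KO. It turned positive in KO with the rod score as a term (0.07), and the averaged value was 0.15 without and -0.42 with a letter in the identifier.

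Slc40a1 (ENSMUSG00000025993, chr1:45908068-45926523, minus strand) encodes ferroportin, the only known iron exporter of mammalian cells. It stood at 10.4, 15.6, 14.2 and 8.19 CPM in untreated WT and at 9.69, 11.2, 18.6 and 23.1 CPM in WT with hydroquinone. The untreated KO libraries gave 21.6, 14.9, 7.38 and 8.51 CPM, while KO with hydroquinone was tight at 17.2, 18.7, 18.3 and 18.3 CPM. The other 3 groups spread so widely that all pairs overlapped, and within 1 untreated KO mouse the eyes differed 2.93-fold (21.6 and 7.38 CPM). The log2 fold change averaged over genotype was 0.42 (SE 0.24; adjusted p = 0.911, edgeR), 0.37 in WT and 0.47 in KO. Single libraries moved both: the WT value was 0.12 without WT hydroquinone replicate 4 and 0.54 without replicate 1, and the KO value was 0.28 without untreated KO replicate 3 and 0.82 without replicate 1. The averaged value was 0.01 in libraries without and 1.08 in those with a letter in the identifier. The WT part of the second value rested on 1 hydroquinone library, replicate 4 (23.1 CPM). The lowest libraries, untreated WT replicate 4 and untreated KO replicates 3 and 4, also carried a letter.

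Macrophages recycle heme iron and are rich in ferroportin, and their markers varied alongside Slc40a1. The 3 libraries with the lowest Slc40a1 (WT untreated replicate 4, KO untreated replicates 3 and 4) had macrophage sums of 1195, 1305 and 1043 CPM, the lowest 3 of the 16. The highest Slc40a1 library, WT with hydroquinone replicate 4, had the highest macrophage sum, 3531 CPM. The median macrophage sum was 1964 CPM in untreated WT, 2042 in WT with hydroquinone, 1784 in untreated KO and 2487 in KO with hydroquinone, with overlap in both pairs. With the macrophage score as a term, the averaged log2 fold change of Slc40a1 was 0.19. The same term left 0.56 for Hmox1, 0.52 for Blvrb and 0.30 for Ftl1, in place of 0.65, 0.57 and 0.42.

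**Figure D4:**
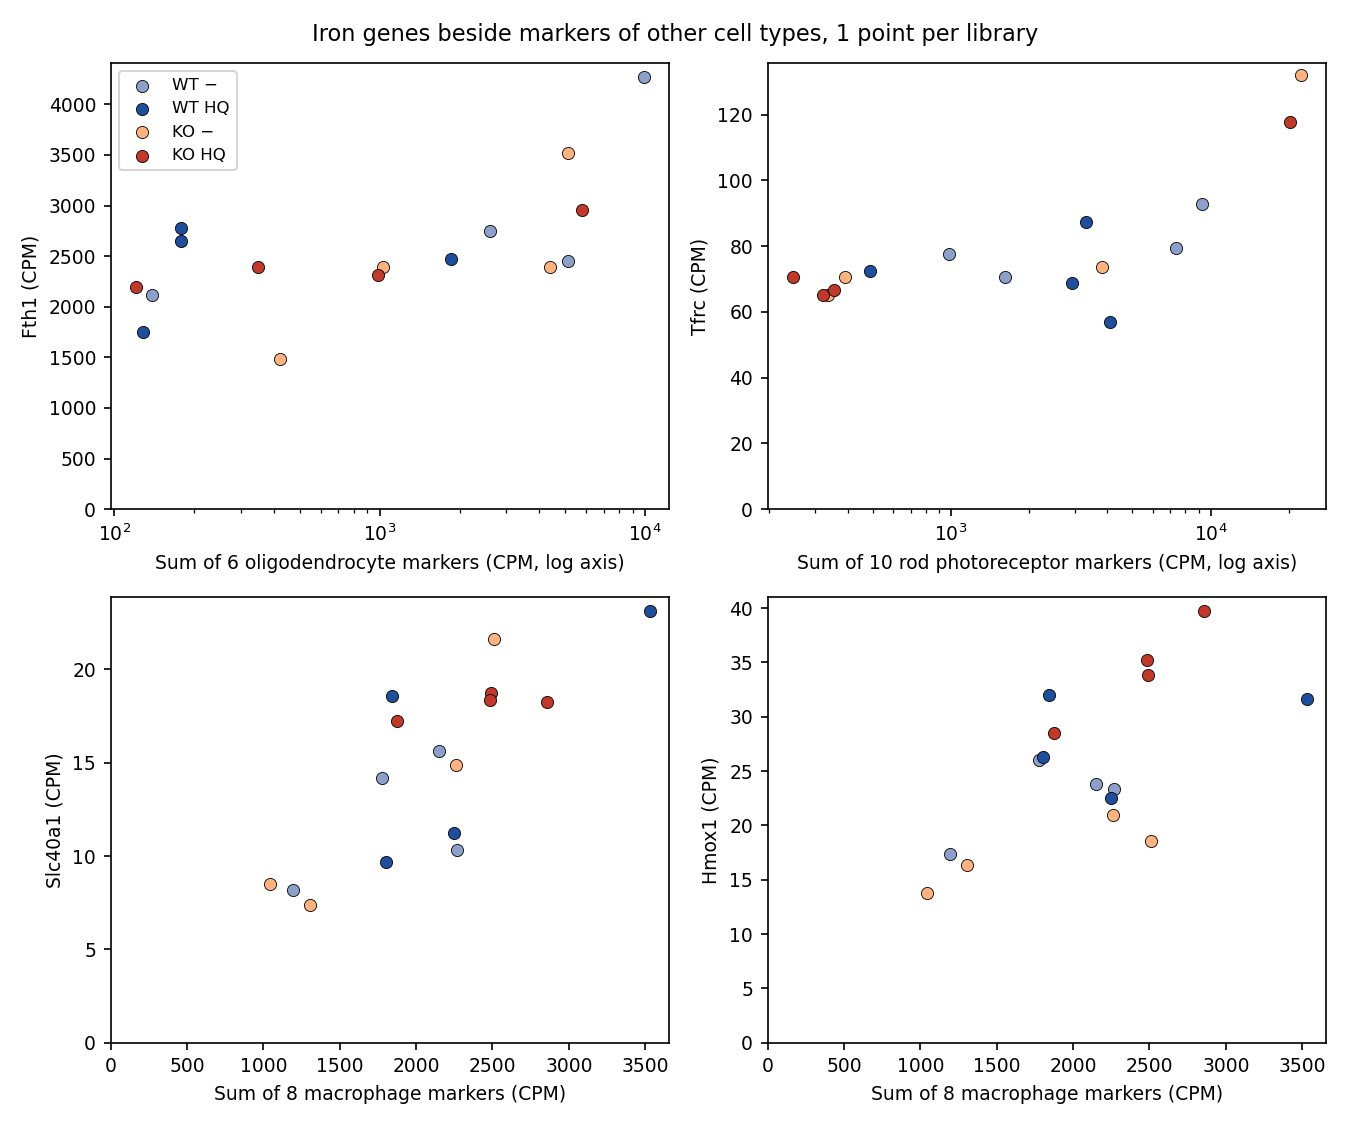
Levels of Fth1, Tfrc, Slc40a1 and Hmox1 (CPM) beside the summed level of markers of another cell type in the same library (CPM; log axis for oligodendrocyte and rod markers). Each point is 1 of 16 libraries, coloured by group. The 2 libraries with the highest rod sums (22215 and 20245 CPM) have the highest Tfrc (132 and 118 CPM), and the 3 libraries with macrophage sums of 1305 CPM or less have the lowest Slc40a1.

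The ferroxidases oxidise exported iron so that transferrin can bind it. Cp (ENSMUSG00000003617, chr3:19957054-20009145, plus strand), which is made both as a secreted and as a membrane-anchored protein, stood at 109, 155, 169 and 172 CPM in untreated WT and at 102, 76.5, 184 and 116 CPM in WT with hydroquinone. In untreated KO it stood at 137, 175, 212 and 243 CPM, and in KO with hydroquinone at 182, 185, 217 and 178 CPM. Cp was the only member with an unadjusted p below 0.05 for genotype averaged over treatment, where 2.96% of all genes were past it. It was 0.51 log2 units higher in KO (SE 0.17; 1.42-fold; adjusted p = 0.987, edgeR), 0.34 untreated and 0.68 under hydroquinone, and both pairs of groups overlapped. The Muller glia sums did not overlap under hydroquinone, at 2376 to 2830 CPM in WT and 3040.0 to 3916 CPM in KO, and their part in the value of 0.68 was not tested. Leaving out untreated KO replicate 4 gave 0.21 for the untreated value. The averaged genotype value was 0.39 without and 0.62 with a letter. It was also 0.39 with the corneal epithelium score as a term; the 2 libraries with the highest corneal sums, 24454 and 19513 CPM, were the WT hydroquinone libraries with the lowest Cp, 76.5 and 102 CPM. With hydroquinone the log2 fold change of Cp was -0.34 in WT (SE 0.24) and -0.01 in KO (SE 0.24). The WT value was -0.63 without WT hydroquinone replicate 3 and -0.18 without replicate 2, and the value averaged over genotype was -0.02 without and -0.35 with a letter in the identifier.

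Heph (ENSMUSG00000031209, chrX:96455359-96574485, plus strand), the membrane-bound ferroxidase, averaged 66.7 ± 18.7 CPM in untreated WT and 80.4 ± 27.9 in WT with hydroquinone (SD, n = 4 libraries each). It averaged 72.6 ± 12.0 in untreated KO and 91.3 ± 23.2 in KO with hydroquinone. Single libraries reached from 44.1 to 117 CPM and overlapped between all groups. Its log2 fold change with hydroquinone was 0.30 averaged over genotype (SE 0.18; adjusted p = 0.914, edgeR), and 0.11 without and 0.47 with a letter in the identifier. In WT it was 0.27, and 0.03 without WT hydroquinone replicate 3. With the oligodendrocyte score as a term the averaged value of Heph was 0.03. It was 0.21 with the rod score, 0.29 with the macrophage score and 0.26 with the corneal epithelium score. The ratio of Cp to Heph per kilobase was 1.51 to 2.10 in untreated WT and 1.07 to 1.26 in WT with hydroquinone, and it was 1.74 to 3.16 and 1.33 to 2.43 in the KO groups. WT with hydroquinone also had the lowest sums of 6 Muller glia markers, 2376 to 2830 CPM, against 2914 to 4119 CPM in untreated WT and 2896 to 4092 CPM in untreated KO. The WT ranges of the ratio did not overlap and the KO ranges did. The ratio was examined with the values known, and neither it nor the part of glial RNA in it was tested. Ratios of Fth1 to Tfrc, Ftl1 to Tfrc and Blvrb to Blvra were also computed. For each of those, the untreated and hydroquinone ranges overlapped in both genotypes.

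The rest of the pathway was followed through 5 lists with 46 genes, of which 43 were tested. Hpx and Hamp, the genes of the heme carrier hemopexin and the iron hormone hepcidin, averaged 0.399 and 0.0813 CPM, and Ftmt, mitochondrial ferritin, had no count in 16 libraries. None of the 43 passed the threshold in any comparison by edgeR, DESeq2 or limma with the mouse as a block, and 2 had an unadjusted p below 0.05 for hydroquinone averaged over genotype, both higher (0 to 3 of them in the other 6 comparisons). These 2 of 43 are a share near the 5.72% of all genes tested, so they say nothing particular of the lists. The first was Bach1, the heme-sensing repressor of Hmox1, with a log2 fold change of 0.45 (SE 0.11; adjusted p = 0.520, edgeR). Bach1 averaged 40.7 CPM in untreated WT and 52.1 with hydroquinone, and 38.8 and 56.4 CPM in KO. The second was Ncoa4, the receptor that delivers ferritin to the lysosome, with 0.30 (SE 0.09; adjusted p = 0.759, edgeR), from 46.5 to 61.3 CPM in WT and from 45.3 to 52.4 CPM in KO.

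In the other lists the 2 genes with the smallest p are named, none of which passed. Of 8 heme synthesis genes the median log2 fold change with hydroquinone, averaged over genotype, was 0.05. Cpox, a late enzyme of the pathway, had -0.44 (SE 0.26) and Alas1, the rate-limiting first enzyme, 0.17 (SE 0.10). The average for Alas1 combined -0.10 in WT and 0.44 in KO (SE 0.14 each), from 70.3 to 65.5 CPM and from 63.6 to 86.0 CPM; this interaction of 0.54 (SE 0.20) had an adjusted p of 1.00 by edgeR. Heme transport genes and partners of heme oxygenase had a median of 0.05, with Slc48a1, a heme transporter of the lysosome membrane, at 0.13 (SE 0.10). The 10 genes of cellular iron uptake and reduction had a median of 0.18, the highest of the 5 lists and below the 0.30 of the members, with Scara5, a ferritin receptor, at 0.27 (SE 0.14) and Steap2, a metal reductase, at 0.24 (SE 0.18). The iron sensing, chaperone and ferritin turnover genes had a median of 0.06, with the iron chaperone gene Pcbp1 at 0.10 (SE 0.07). The 8 tested genes of mitochondrial iron and iron-sulfur clusters had a median of -0.05, with the mitochondrial transporter gene Abcb8 at -0.09 (SE 0.06) and the cluster scaffold gene Iscu at -0.10 (SE 0.09).

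Genes with the profile most like a member's were listed by Pearson's r of log2(CPM + 1) over the 16 libraries, among 10805 genes that averaged 10 CPM or more. This is a description, since the libraries share groups and tissue makeup. Hmox1 was closest to Gstm1 (r = 0.913), Man2b1 (0.908) and Txnrd1 (0.899), which encode a glutathione transferase, a lysosomal mannosidase and a thioredoxin reductase. Blvrb was closest to Pgd (0.906), an enzyme of the pentose phosphate pathway, and to the MHC class II genes H2-Ab1 (0.879) and H2-Eb1 (0.871). Fth1 was closest to Csrp1 (0.923), Rhog (0.923) and Lamp1 (0.894), and Tfrc to Adal (0.967), Pcmtd2 (0.962) and Tmem136 (0.958).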

How the data were processed

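RNA from the RPE of single mouse eyes was sequenced (Illumina NovaSeq, per the labels' protocols). The authors deposited 1 table of counts per Ensembl gene for 16 libraries. The table is labelled FPKM, yet 100% of the values were whole and library totals differed, so it was treated as counts. The submitters' processing notes name STAR, Cufflinks, DESeq2 and mm10, without versions or roles; annotation, strand and duplicate handling are not given in the sources used here. Symbols and coordinates are from GENCODE M21 (GRCm38), which matched 51719 of 51912 identifiers.

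edgeR 4.0.16 (R 4.3.3) was run on the deposited counts: TMM scaling, 4 group means in 1 model, quasi-likelihood F test, genes averaging 1 CPM or more, Benjamini-Hochberg adjustment over all 15380 genes and a threshold of 0.05. Levels are CPM on TMM-scaled library sizes, and standard errors come from the F statistic. DESeq2 1.42.0 and limma 3.58.1 (log2(CPM + 1), mouse as a random block) were alternatives. The script was tested on simulated counts.

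The members and lists were chosen with earlier results of these data known. Named genes were all members, the 2 genes of each other list with the smallest p for hydroquinone averaged over genotype (none passed), the 3 genes most like Hmox1, Blvrb, Fth1 and Tfrc, ferritin copies and Sucnr1. Replicates were numbered by accession order, which pairs no samples. Marker lists for endothelium and Muller glia were also summed (141 to 516 and 2376 to 4119 CPM).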

Additional observations from a re-analysis of the deposited data

Results flagged for a closer look

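Among 40 sets of 4 libraries (10 genes in 4 groups), 2 held a library far from the other 3 on the CPM scale, both for Tfrc. In untreated KO, replicate 4 stood at 132 CPM, and the gap to its nearest neighbour was 0.873 of the whole range of the group. In KO with hydroquinone, replicate 1 stood at 118 CPM, with a gap of 0.893 of the range. On the log2 scale the second passed Dixon's critical value for 4 samples (0.86), while the first fell just short (0.827). Chance gives about 2 such sets among 40. These were the 2 libraries with the highest rod marker sums of the 16, and the part of rod RNA in the gaps was not tested.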

How the results depend on the processing

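Outside the leave-one-out fits, 18 alternatives were run. Of 1179 recomputed member values, 1125 kept direction and side of the threshold, 12 newly passed it and 42 changed sign; of 320 values for the other named genes, 5 changed sign. Counts of all genes and of members past the threshold, and log2 fold changes, are given below; the cause of these moves was not tested, except that fewer genes or samples enter some fits.
For hydroquinone averaged over genotype, 13 genes passed; the count was 39 with DESeq2, 6 with the eyes of a mouse summed, 8 with eye side, 7 with the oligodendrocyte score, 2 in libraries without and 0 in libraries with a letter, and 7 to 15 leaving out 1 library. Members past it were 0, but 2 with DESeq2 and 1 with the rod score (Hmox1, adjusted p = 0.0245, edgeR) or the corneal epithelium score (0.0351), and 0 to 1 leaving out 1 library: Hmox1 passed without WT hydroquinone replicate 2 (0.0407) and without KO hydroquinone replicate 1 (0.0495), and its adjusted p spanned 0.0407 to 0.226 over the 16 omissions.
In WT, 1 gene passed; the count was 2 with median-of-ratios scaling, 20 with DESeq2, 0 at a mean of at least 10 CPM, 2 with limma's mouse block, 2 with identifier form, 4 with the rod score, 2 with only the groups compared, 0 with a letter, 2 without the 2 libraries richest in rod markers, 2 without the 2 richest in oligodendrocyte markers, and 1 to 3 leaving out 1 library.
In KO, 7 passed; the count was 14 with DESeq2, 3 with eyes summed, 4 with identifier form, 4 with the oligodendrocyte score, 0 with only the groups compared, 1 without and 0 with a letter, and 3 to 11 leaving out 1 library. Members past it in KO were 0, but 2 with DESeq2, 1 with the rod score (Hmox1, 0.018) and 0 to 1 leaving out 1 library: Hmox1 passed without WT hydroquinone replicate 2 (0.0487), KO hydroquinone replicate 1 (0.0379) and WT untreated replicate 4 (0.0469). For KO against WT under hydroquinone 0 genes passed, but 3 with DESeq2.
Leaving out 1 library moved the following values by over 1.5 times without a change of sign in these fits. In WT these were Hmox1 (0.203 without untreated WT replicate 4), Blvrb (0.223 without WT hydroquinone replicate 2) and Tfrc (-0.279 to -0.0738). In KO they were Blvra (0.159 without untreated KO replicate 1) and Heph (0.205 without KO hydroquinone replicate 3). Hmox2 was -0.123 to -0.00199 in WT and 0.0361 to 0.129 in KO. Averaged over genotype, Heph was 0.182 without WT hydroquinone replicate 3, and Fth1 was -0.223 to -0.00344. The averaged values of Cp were -0.319 to -0.0942, of Steap2 0.146 to 0.332, of Abcb8 -0.13 to -0.062 and of Iscu -0.138 to -0.0573. The values of Slc40a1, Cp, Heph and Fth1 given with their genes also moved by over 1.5 times.
Sign changes, averaged over genotype: Hmox2 was -0.0211 without a letter and -0.0173 without the rod-rich libraries (leave-one-out -0.02 to 0.0403); Fth1 was 0.153 with the oligodendrocyte score and 0.17 with a letter; Tfrc was 0.154 without a letter (leave-one-out -0.253 to 0.00793); Scara5 was -0.033 and Slc48a1 -0.0535 without a letter, Steap2 was -0.015 and Cpox 0.0287 with the oligodendrocyte score, and Iscu was 0.066 with a letter. In WT, Hmox2 was 0.0451 with a letter, Fth1 0.11 with the oligodendrocyte score and 0.0985 with a letter, and Heph -0.0568 with the oligodendrocyte score. In KO, Fth1 was -0.00579 at 10 CPM, -0.0751 with eye side, -0.00581 with the rod score, -0.128 with the macrophage score, -0.00964 with only the groups compared, -0.191 without a letter, -0.279 without the rod-rich and -0.0918 without the oligodendrocyte-rich libraries (leave-one-out -0.182 to 0.236). In KO, Tfrc was 0.0674 with the rod score, 0.0282 with the macrophage score and 0.403 without a letter (leave-one-out -0.339 to 0.184), and Slc40a1 was -0.042 without a letter. In KO, Cp was 0.0219 with limma's mouse block, 0.00941 with identifier form, 0.027 with eye side, 0.0742 with the rod score, 0.128 with the macrophage score, 0.212 without a letter, 0.14 without the rod-rich and 0.013 without the oligodendrocyte-rich libraries (leave-one-out -0.139 to 0.116). The fits with marker scores for oligodendrocyte and cornea, and those without marker-rich libraries, were added after seeing the data.
No paired analysis was possible because no mouse had libraries in more than 1 group. Replicate numbers follow accession order. The mouse as a random block used a consensus correlation of -0.0202. Eye side was uneven in KO (1 right eye untreated, 3 with hydroquinone) and cannot be fully told apart from treatment there.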
